A study of Mus musculus with 123 samples.

Results

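The 10 genes described here encode subunits of the Polycomb repressive complexes: Ezh2, Ezh1, Eed, Suz12, Jarid2 and Mtf2 of Polycomb repressive complex 2 (PRC2), and Rnf2, Ring1, Bmi1 and Kdm2b of PRC1. They were chosen by symbol, with earlier results of these data known, as 10 of the 29022 genes of a table of transcript counts. They were followed across 16 groups of mouse embryos. The question of the study was the role of 2 transcription factors, Oct4 (encoded by Pou5f1) and Sox2, in the inner cell mass (ICM) of the blastocyst as it forms and matures. Single embryos or single ICMs were sequenced, 68 of the Oct4 line and 55 of the Sox2 line. Mice of the B6C3F1 background are named in the labels. In the Ctrl embryos (48), the mothers carried flox/flox alleles of Pou5f1 or Sox2 and Zp3-Cre, which acts in growing oocytes, so that the maternal gene was deleted while the paternal allele was intact. In the KO embryos (48), the paternal allele was a knockout as well, marked by the fluorescent protein mKO2 at Pou5f1 or EGFP at Sox2, so that the embryos lacked the maternal and the zygotic gene. The MWT embryos (27) are taken here as wild type, with the maternal gene intact, although the labels give only the abbreviation. Deletion of the maternal gene was therefore shared by Ctrl and KO. Morulae were taken whole at E2.75. ICMs were collected early (E3.75) or late (E4.5) from embryos that had been explanted at E2.5, cultured with the MEK inhibitor PD0325901 (1 µM), which suppresses the primitive endoderm, and freed of trophectoderm by immunosurgery. Stage, culture and isolation therefore changed together, and the line cannot be told apart from the batch in which it was processed. At each stage there were 8 Ctrl and 8 KO embryos in either line. MWT embryos were sequenced in the Oct4 line as 7 morulae, 5 ICMs of the early and 8 of the late stage, and in the Sox2 line as 7 early ICMs. Numbers of the Ctrl and KO late ICMs begin with 1 or 2, 2 sets that the labels do not explain and that both occur in each of these groups. The Oct4 MWT ICMs are placed by their titles, since their source names give an earlier stage.

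Polycomb complexes keep developmental genes silent by modifying histones. PRC2 consists of a catalytic subunit, Ezh2 or its paralog Ezh1, with Eed and Suz12, and methylates histone H3 at lysine 27. Eed binds the methylated mark and Suz12 holds the complex together, while Jarid2 and Mtf2 are accessory subunits that help bring PRC2 to chromatin. PRC1 is built around Rnf2 or its paralog Ring1, the E3 ligases that attach ubiquitin to histone H2A. Bmi1, also called Pcgf4, is the partner of the ligase in canonical PRC1, and Kdm2b, which binds unmethylated CpG islands, belongs to a variant PRC1. In the early mouse embryo, PRC2 is known for its part in imprinted gene silencing and X inactivation, and in keeping lineage regulators off in pluripotent cells.

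All 10 genes had at least 1 UMI (unique molecular identifier, a tag that lets each captured molecule be counted once) in every embryo of the 16 groups, and all 10 passed the filter on low counts. Total UMIs per embryo ran from 525755 to 1344035. Ring1 was the least counted, with 2 to 39 UMIs per embryo (median 12), followed by Ezh1 with 5 to 61 (median 23). Ezh2 had 44 to 402 (median 135), and Mtf2 had the most UMIs of the 10 over all embryos, 50019. As a check of the labels, Pou5f1 averaged 0.43, 1.03 and 0.16 CPM (UMI counts scaled by the TMM factors and the total of each library) in Oct4-KO morulae, early and late ICMs, against 21.1, 77.7 and 43.8 in Ctrl. Sox2 averaged 1.56, 24.3 and 16.7 CPM in Sox2-KO embryos, against 13.7, 106 and 174. In each of these 6 comparisons, 8 of 8 KO embryos lay below the Ctrl median. Sox2 was also lower in Oct4-KO late ICMs, with a log2 fold change of -1.62. The sum of 6 markers of cumulus and other somatic cells reached at most 101 CPM in any embryo.

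The libraries were enriched for 3′ ends, so each count depends on where its gene ends. The genes are placed by mm10, the build of the count table. Ezh2 spans chromosome 6, 47530139 to 47595341, on the minus strand. Ezh1 and Suz12 lie on chromosome 11, at 101191115 to 101226463 (minus) and 79993106 to 80034123 (plus). Eed lies on chromosome 7, at 89954654 to 89980983 (minus). Jarid2 lies on chromosome 13, at 44729474 to 44921643 (plus), and Mtf2 on chromosome 5, at 108065674 to 108109004 (plus). Rnf2 spans chromosome 1, 151458004 to 151500955 (minus), Ring1 chromosome 17, 34020792 to 34024680 (minus), and Bmi1 chromosome 2, 18677018 to 18686629 (plus). Kdm2b lies on chromosome 5, at 122870665 to 122989823 (minus). At its 3′ end, Kdm2b shares 627 exonic bases with Rnf34 on the opposite strand, and Rnf2 shares 158 with Trmt1l. Mtf2 shares 395 exonic bases with Tmed5, at 2022 bases from its 3′ end. Whether the counting used the strand is not stated, so the counts of Mtf2, Rnf2 and Kdm2b are uncertain, and may include reads of these neighbours or miss reads assigned to them. Ezh2 and Eed, on which the results below turn, had no such overlap with a counted gene at their 3′ ends.

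Ezh2, the catalytic subunit of PRC2, was lower in KO than in Ctrl ICMs of both lines and at both ICM stages. In Oct4 Ctrl early ICMs, Ezh2 ran from 177 to 384 CPM (median 234, n = 8), and in Oct4-KO early ICMs from 84.6 to 158 (median 115, n = 8). The highest KO embryo stood below the lowest Ctrl embryo. In Oct4 late ICMs, the Ctrl embryos ran from 122 to 337 CPM (median 193) and the KO embryos from 67.4 to 127 (median 82.3), and the groups touched in the range from 122 to 127. In Sox2 early ICMs, Ezh2 ran from 89.8 to 210 CPM in Ctrl (median 118) and from 60.2 to 111 in KO (median 72.7). In Sox2 late ICMs, it ran from 105 to 241 CPM in Ctrl (median 180) and from 53.4 to 115 in KO (median 80.7). These last comparisons overlapped at their edges, but in all 4 the 8 KO embryos lay below the Ctrl median. As fitted by edgeR, the log2 fold change of Ezh2 was -1.09 ± 0.165 (SE, 95% interval -1.42 to -0.76, adjusted p 1.53e-07) in Oct4 early ICMs and -1.17 ± 0.171 (-1.51 to -0.83, adjusted p 2.87e-08) in Oct4 late ICMs. In the Sox2 line it was -0.72 ± 0.170 (-1.05 to -0.38, adjusted p 0.00281) in early ICMs and -1.09 ± 0.170 (-1.43 to -0.75, adjusted p 6.25e-07) in late ICMs. KO ICMs thus held 0.470, 0.446, 0.609 and 0.470 of the Ctrl level of Ezh2 in these 4 comparisons. Ezh2 kept an adjusted p under 0.05 when any single embryo was left out. The value in Oct4 early ICMs was -0.97, and so short of a 2-fold fall, without Ctrl embryo 6, which had the highest Ezh2 of its group.

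**Figure D1:**
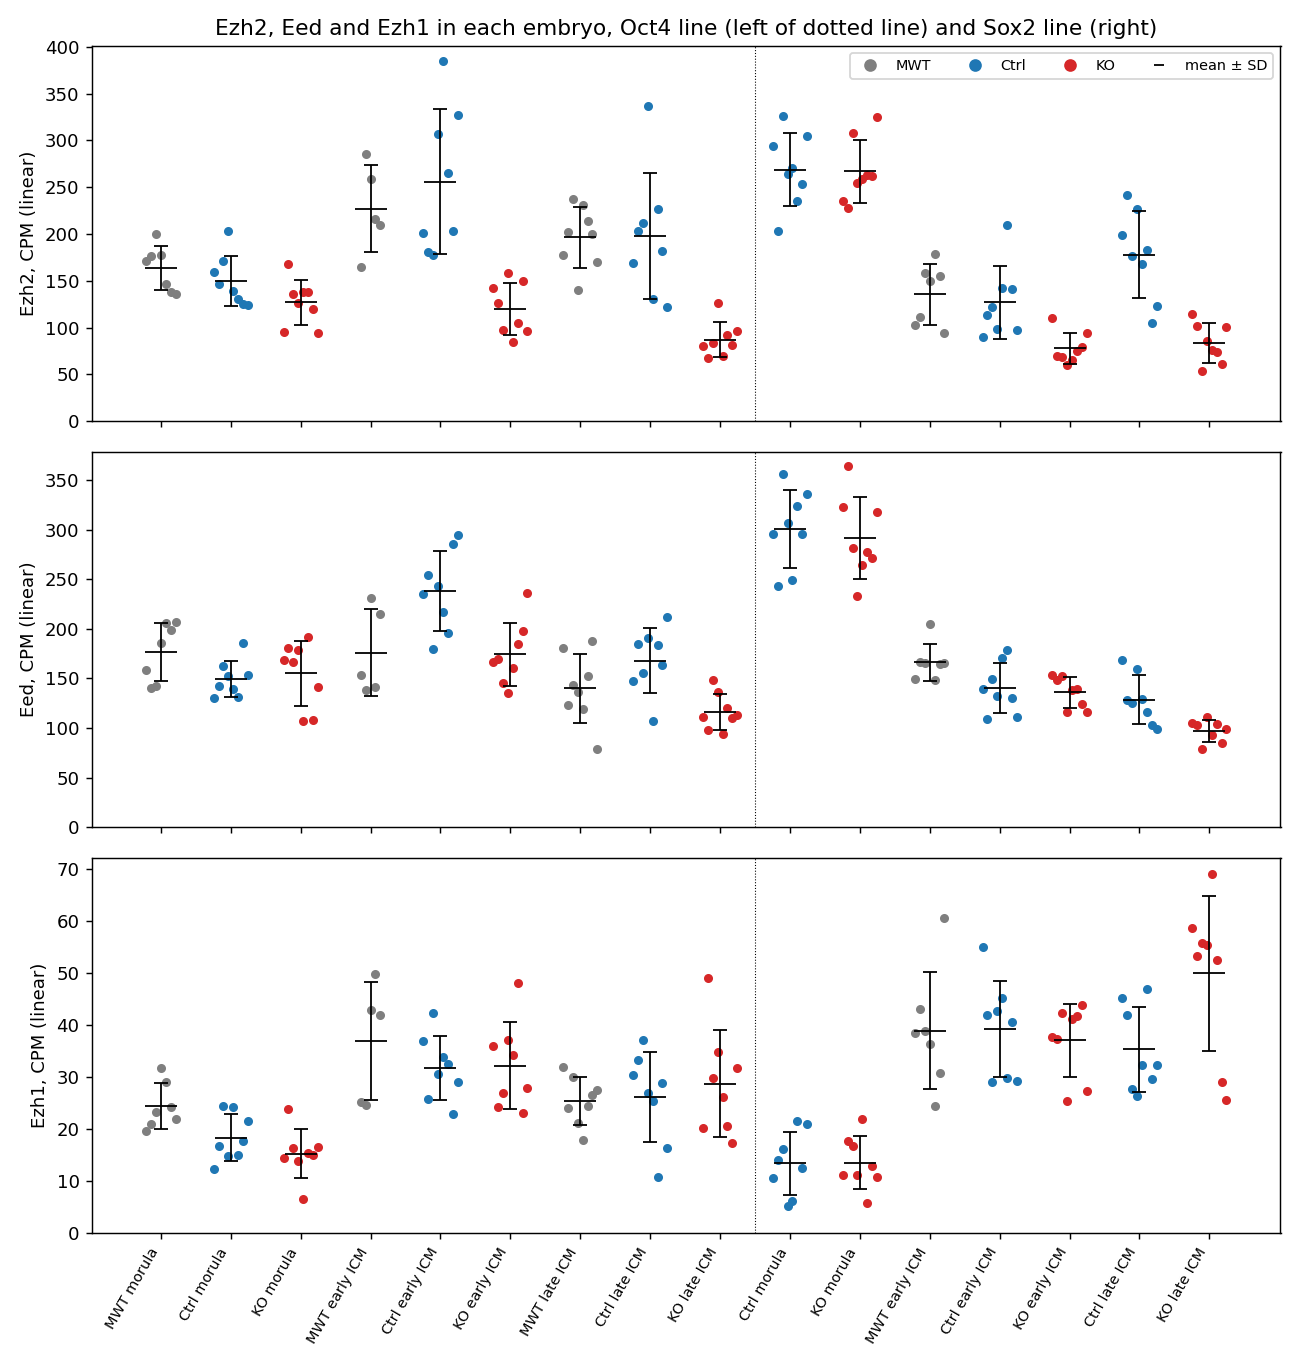
Levels of Ezh2, Eed and Ezh1 in every embryo, in CPM on linear axes starting at 0, with 1 point per embryo and bars for the mean ± SD of each group (n = 8, except MWT groups of 5 to 8). Ezh2 in the KO ICMs lies between 53.4 and 158 CPM, and the means of Ezh1 in the same KO groups lie between 28.7 and 49.9 CPM.

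In morulae, Ezh2 did not pass the test in either line. Ezh2 ran from 93.7 to 168 CPM in Oct4-KO morulae and from 124 to 203 in their Ctrl, with a log2 fold change of -0.22 ± 0.164 (95% interval -0.55 to 0.10, adjusted p 0.668). In the Sox2 line, the morulae averaged 269 ± 39.4 CPM (SD, n = 8) in Ctrl and 267 ± 33.4 in KO, and the log2 fold change was 0.01 (-0.31 to 0.32). The intervals leave room for a change of up to 0.55 on the log2 scale in the Oct4 line and 0.32 in the Sox2 line. Tested as an interaction in the same fit, the KO effect on Ezh2 was lower in early ICMs than in morulae of the Oct4 line, by -0.87 on the log2 scale (-1.33 to -0.41, adjusted p 0.0146), 1 of the 10 genes where 4.84% of all genes passed. The same difference in the Sox2 line, -0.72 (-1.18 to -0.26), had an adjusted p of 0.113, where 1.15% of all genes passed. The effects on Ezh2 in the 2 lines were not distinguished: the Oct4 minus Sox2 difference was -0.37 in early ICMs (-0.84 to 0.09, adjusted p 0.363) and -0.08 in late ICMs (-0.55 to 0.40, adjusted p 0.912, with 8.67% of all genes past the test).

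Ezh2 was not alone among the genes of these ICMs. In the Oct4 line, 21% of the 14053 genes tested passed an adjusted p of 0.05 in early ICMs and 31.7% in late ICMs, against 3 and 5 of the 10 Polycomb genes. In the Sox2 line, 7.04% and 13.8% of all genes passed, against 1 and 3 of the 10. Changes that also reached 2-fold were found in 10.9%, 18.1%, 3.27% and 6.95% of all genes in these 4 comparisons, and Ezh2 was the only one of the 10 to reach it, in 3 of the 4. Its absence of overlap in Oct4 early ICMs was shared with 3.93% of all genes. In morulae, 1.47% of all genes passed in the Oct4 line and 0.00712% (1 gene) in the Sox2 line, and edgeR called 0 of the 10 in each. At an unadjusted p under 0.05, the Oct4 morulae had 1 of the 10 (Jarid2, -0.34, -0.67 to -0.02) and the Sox2 morulae 0, with no share of all genes computed at that rule. DESeq2 and limma on the deposited rlog values also called 0 of the 10 in each. The median log2 fold change of the 10 was -0.19 in Oct4 early and late ICMs, -0.06 in Sox2 early and 0.03 in Sox2 late ICMs, with medians over all genes between -0.01 and 0.01.

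**Figure D2:**
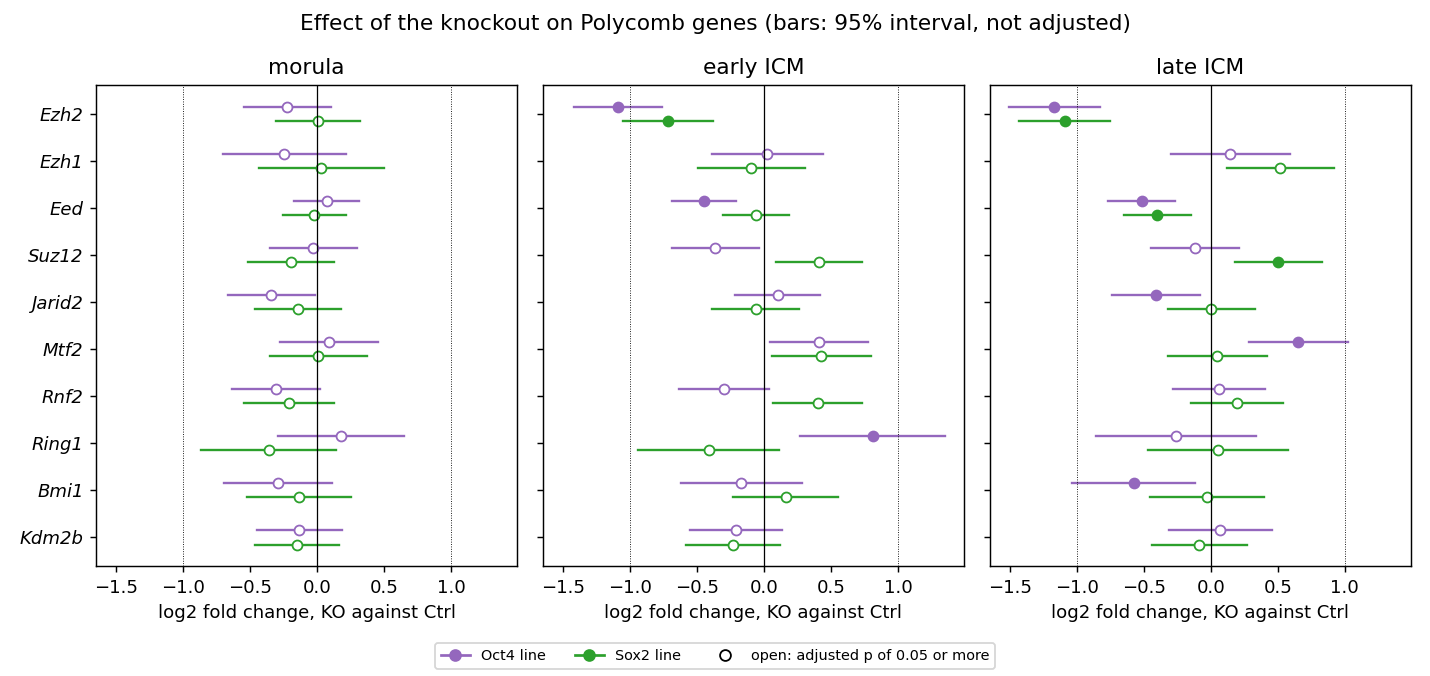
The log2 fold change of KO against Ctrl for each of the 10 genes, in 1 panel per stage, with 95% intervals as bars, the Oct4 line and the Sox2 line in separate colours and open circles where the adjusted p was 0.05 or more. In both ICM panels the intervals of Ezh2 lie below 0 in both lines, from -1.51 to -0.38, while those of Ezh1 include 0 in 3 of the 4 cases.

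The 4 ICM comparisons also differed in the markers of cell types. For the counts by direction given here and for other lists below, 10.1% of all genes passed as higher and 10.9% as lower in Oct4 early ICMs, 16% and 15.7% in Oct4 late ICMs, 3.22% and 3.82% in Sox2 early ICMs, and 6.96% and 6.81% in Sox2 late ICMs. The summed level of 12 epiblast markers, which include Pou5f1 and Sox2 themselves, ran from 2975 to 4452 CPM in Oct4 Ctrl early ICMs and from 1808 to 2506 in KO. It ran from 3742 to 5086 against 755 to 1598 in Oct4 late ICMs, from 2412 to 4872 against 1963 to 2555 in Sox2 early ICMs, and from 3485 to 5250 against 1909 to 3212 in Sox2 late ICMs. Of these 12 markers, 10, 12, 6 and 8 passed the test as lower in KO, and 0 as higher. The sum of 14 trophectoderm markers had medians of 642 and 1306 CPM in Ctrl and KO Oct4 early ICMs and of 761 and 3242 in Oct4 late ICMs. The medians were 459 and 934 in Sox2 early ICMs and 575 and 1038 in Sox2 late ICMs, where 1 Ctrl embryo reached 2995. Of the 14, 3, 10, 5 and 4 passed as higher in KO, and 2, 0, 1 and 2 as lower. Markers of the primitive endoderm were mixed, with 3, 3, 1 and 1 of 11 tested passing as higher and 3, 5, 0 and 1 as lower, and Foxa2 and Ttr had no UMI in most groups. In these whole ICMs, fewer cells of a type and less RNA per cell cannot be told apart, and the part of these markers in the fall of Ezh2 was not tested. A list of 15 S-phase genes, given because Ezh2 is known to be made mainly in dividing cells, had 1 higher and 6 lower in Oct4 early ICMs, 2 and 4 in Oct4 late ICMs, 2 and 0 in Sox2 early ICMs, and 0 and 1 in Sox2 late ICMs. Its median log2 fold changes were -0.38, -0.13, 0.22 and 0.01.

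Eed, the subunit that reads the methylated histone, fell with Ezh2 in 3 of the 4 ICM comparisons, by less. Eed ran from 180 to 295 CPM in Oct4 Ctrl early ICMs (median 239) and from 135 to 236 in KO (median 168). In Oct4 late ICMs, it ran from 107 to 212 CPM in Ctrl (median 173) and from 93.6 to 148 in KO (median 112), and in Sox2 late ICMs from 99.1 to 168 (median 127) against 78.9 to 111 (median 101). The ranges overlapped each time, with 8 of 8 KO embryos below the Ctrl median. The log2 fold changes were -0.45 ± 0.121 (adjusted p 0.00352), -0.52 ± 0.126 (adjusted p 0.000652) and -0.40 ± 0.126 (adjusted p 0.0207), so that KO ICMs held 0.733, 0.699 and 0.758 of the Ctrl level. The Sox2 late ICM call of Eed was lost without Ctrl embryo 1-1, Ctrl embryo 1-10 or KO embryo 1-5, with an adjusted p of up to 0.0707. In Sox2 early ICMs, Eed averaged 140 ± 25.4 CPM in Ctrl and 136 ± 15.7 in KO (SD, n = 8), a log2 fold change of -0.06 (-0.30 to 0.18, adjusted p 0.848). The difference between the lines in early ICMs, -0.39, did not pass either (adjusted p 0.156).

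Eed was lower with Ezh2 in 3 of the 4 ICM comparisons, and edgeR with all embryos did not call Ezh1, the paralog of Ezh2. The promoters of these 3 genes are therefore shown, from 250 bases before to 30 bases after the RefSeq start (GRCm38.p6, 280 bases, 5′ to 3′ along the gene). Capitals mark matches, on either strand, to 4 kinds of words: the E2F words TTTGGCGC, TTTCCCGC, TTTCGCGC and TTTGCCGC, the octamer ATGCAAAT bound by Oct4, the SOX word CATTGTT and the CCAAT box. The windows are chr6:47595001-47595280 for Ezh2, chr7:89980947-89981226 for Eed and chr11:101226434-101226713 for Ezh1, all on the minus strand. The Ezh2 window lies wholly inside the annotated gene, whose 5′ end is at 47595341, so bases upstream of that end were not searched.
Ezh2: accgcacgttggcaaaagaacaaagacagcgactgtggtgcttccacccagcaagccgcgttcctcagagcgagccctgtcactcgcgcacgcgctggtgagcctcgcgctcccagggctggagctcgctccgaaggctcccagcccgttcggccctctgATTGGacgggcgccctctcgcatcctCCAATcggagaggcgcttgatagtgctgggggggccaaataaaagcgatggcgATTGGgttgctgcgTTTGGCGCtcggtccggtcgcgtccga
Eed: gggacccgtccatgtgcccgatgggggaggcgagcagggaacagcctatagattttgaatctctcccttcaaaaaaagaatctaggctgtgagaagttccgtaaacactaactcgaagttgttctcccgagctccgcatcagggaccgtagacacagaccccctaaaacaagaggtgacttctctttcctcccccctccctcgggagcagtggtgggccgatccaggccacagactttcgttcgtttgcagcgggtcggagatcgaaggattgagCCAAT
Ezh1: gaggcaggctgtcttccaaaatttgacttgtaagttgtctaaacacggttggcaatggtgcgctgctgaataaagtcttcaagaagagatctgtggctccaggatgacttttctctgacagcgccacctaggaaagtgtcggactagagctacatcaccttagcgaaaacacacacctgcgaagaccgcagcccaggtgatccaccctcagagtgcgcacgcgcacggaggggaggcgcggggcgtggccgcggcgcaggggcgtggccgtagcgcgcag
The Ezh2 window held 1 E2F word, TTTGGCGC, 4 bases after the start, and CCAAT boxes at 90 and 11 bases (reverse strand) and 64 bases (forward strand) before it. The Eed window held 1 CCAAT box, 26 bases after the start, and the Ezh1 window held none of the words. Over 32851 mouse promoter windows of the same length, 2.12% held an E2F word, 1.69% the octamer, 3.64% the SOX word and 36.1% a CCAAT box. The windows held 30 CpGs in Ezh2, 15 in Eed and 21 in Ezh1, against a median of 6. Among all 15 RefSeq windows of the 10 genes, the octamer was in 0 and the SOX word in 1, a start of Kdm2b, and Suz12 held an E2F word, TTTCCCGC, 219 bases before its start. Only these exact words were searched, so other forms of the same sites, such as other SOX words, are neither marked nor counted. These are matches of letters in short windows, and say nothing of binding at these genes or at distant enhancers.

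Suz12, the scaffold of PRC2, was higher in KO in Sox2 late ICMs, and its KO effect differed between the lines in early ICMs. In Sox2 late ICMs it was higher in KO, from 355 to 516 CPM (median 430) against 174 to 377 in Ctrl (median 335), with 8 of 8 KO embryos above the Ctrl median. The log2 fold change was 0.50 ± 0.164 (0.18 to 0.83, adjusted p 0.0264), and it was lost without Ctrl embryo 2-4, Ctrl embryo 2-6 or KO embryo 1-1 (adjusted p up to 0.0900) and with total UMIs as the only scaling (adjusted p 0.0812). In Sox2 early ICMs, the value was 0.41 (adjusted p 0.114, and 0.0459 with only the 2 groups compared). In Oct4 early ICMs, Suz12 ran from 268 to 424 CPM in KO and from 389 to 549 in Ctrl, a log2 fold change of -0.36 (-0.69 to -0.04, adjusted p 0.103). It passed there as lower with only the 2 groups compared (-0.38, adjusted p 0.0222) and with total UMIs as the only scaling (-0.44, adjusted p 0.0427), and in Oct4 late ICMs the log2 fold change was -0.12. Tested directly, the KO effect on Suz12 in early ICMs was lower in the Oct4 than in the Sox2 line, by -0.78 on the log2 scale (-1.23 to -0.32, adjusted p 0.0207). This was 1 of 2 of the 10 genes past the test of that difference, where 8.12% of all genes passed, and the other was Ring1.

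Ezh1, the paralog of Ezh2 that is known to prevail in cells that have stopped dividing, was called in 0 of the 6 KO comparisons by edgeR with all embryos, and its only unadjusted p under 0.05 was in Sox2 late ICMs. Its log2 fold changes were 0.03 (-0.39 to 0.44) and 0.15 (-0.30 to 0.59) in Oct4 early and late ICMs and -0.09 (-0.49 to 0.30) in Sox2 early ICMs. In Sox2 late ICMs, Ezh1 averaged 49.9 ± 14.9 CPM in KO and 35.3 ± 8.11 in Ctrl (SD, n = 8), a log2 fold change of 0.52 (0.12 to 0.92, adjusted p 0.070). There 6 of 8 KO embryos stood above the Ctrl median and 2 below it, and DESeq2 gave an adjusted p of 0.0367, its 1 call of Ezh1 in the 6 comparisons, where limma on the rlog values made 0. With edgeR it also passed without Ctrl embryo 2-3 (adjusted p 0.0451), KO embryo 2-10 (0.0312) or KO embryo 2-8 (0.0364). The intervals leave room for a change of Ezh1 of up to 0.59 on the log2 scale in the other ICM comparisons.

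Because each embryo counts both paralogs, their balance was also read within embryos, as the ratio of Ezh2 to Ezh1 UMIs. The ratio depends on how well each 3′ end was captured, so only its differences between groups are described, with no test. Summed over embryos, it was 8.12 in Oct4 Ctrl early ICMs and 3.74 in KO, and 7.50 in Oct4 Ctrl late ICMs and 3.04 in KO. In the Sox2 line it was 3.18 and 2.08 in Ctrl and KO early ICMs and 5.06 and 1.61 in Ctrl and KO late ICMs. Morulae had 8.11 and 8.28 in the Oct4 line and 19.98 and 19.4 in the Sox2 line, for Ctrl and KO. The KO ICMs therefore had the lower ratio in each of the 4 pairs, and the morulae of the 2 lines stood further apart than those of the 2 genotypes.

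**Figure D3:**
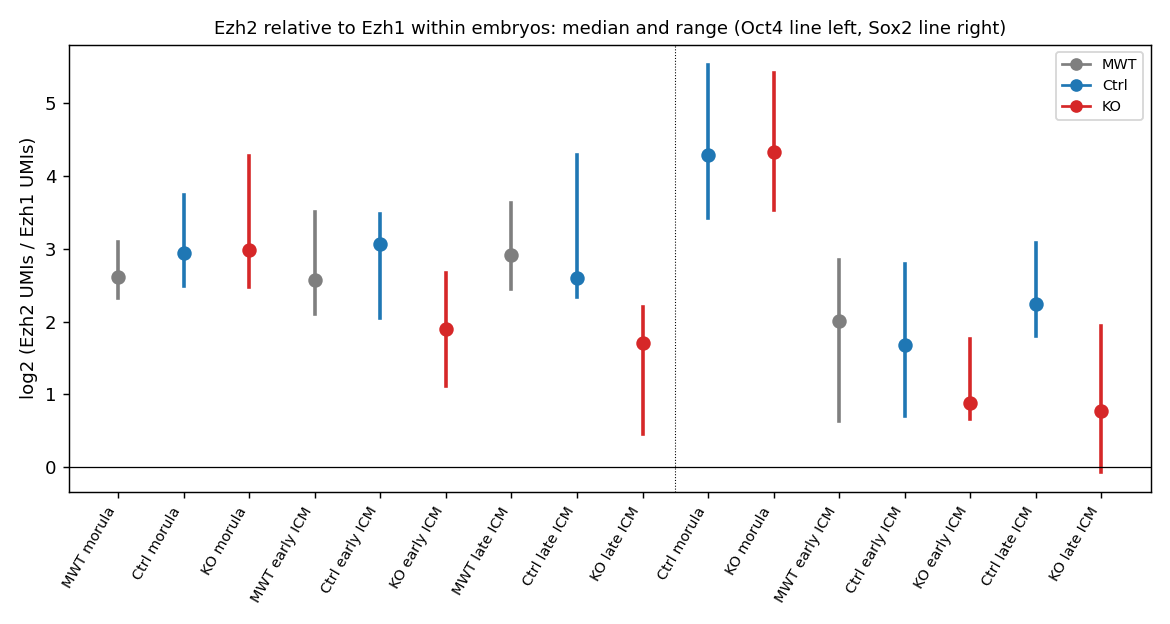
The log2 ratio of Ezh2 to Ezh1 UMIs within embryos, with the median as a point and the lowest to the highest embryo as a bar for each of the 16 groups, and a line at 0 where the counts would be equal. The medians of the KO ICMs are 1.90, 1.71, 0.88 and 0.77 and those of the Ctrl ICMs 3.06, 2.60, 1.68 and 2.25, in the order Oct4 early, Oct4 late, Sox2 early and Sox2 late.

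The accessory subunits Jarid2 and Mtf2 went in opposite directions in Oct4 late ICMs. Mtf2, which carries a Tudor domain and binds CpG-rich DNA, ran from 363 to 1103 CPM in KO (median 645) and from 213 to 575 in Ctrl (median 452). It was higher by 0.65 ± 0.186 on the log2 scale (0.29 to 1.02, adjusted p 0.00367), with 6 of 8 KO embryos above the Ctrl median. Jarid2, which holds an inactive Jumonji domain, ran from 161 to 450 CPM in KO (median 240) and from 152 to 479 in Ctrl (median 381), a log2 fold change of -0.41 ± 0.165 (-0.74 to -0.08, adjusted p 0.0467). The Jarid2 ranges overlapped almost fully, and the call was lost in 10 of the 16 fits that left out 1 embryo of either group, with an adjusted p of up to 0.105. In early ICMs, Mtf2 had log2 fold changes of 0.41 (adjusted p 0.103) in the Oct4 line and 0.43 (adjusted p 0.160) in the Sox2 line, with 8 of 8 KO embryos above the Ctrl median in each, and in Sox2 late ICMs 0.05. Without Ctrl embryo 4, Mtf2 passed in Oct4 early ICMs (0.50, adjusted p 0.0482). Jarid2 had 0.10, -0.06 and 0.00 in Oct4 early, Sox2 early and Sox2 late ICMs.

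Of the PRC1 genes, Ring1 and Bmi1 passed in 1 KO comparison each. Ring1, the less counted of the H2A ligases, averaged 16.5 ± 5.56 CPM in Oct4-KO early ICMs and 9.33 ± 3.04 in Ctrl (SD, n = 8), with KO embryos from 8.26 to 23.4 and Ctrl embryos from 4.37 to 13.0. Its log2 fold change was 0.81 ± 0.271 (0.27 to 1.35, adjusted p 0.0226), with 6 of 8 KO embryos above the Ctrl median. The call was lost without Ctrl embryo 8 or KO embryo 14 (adjusted p up to 0.0628) and when every gene with 1 UMI was tested (adjusted p 0.0539). In Sox2 early ICMs, Ring1 had -0.41 (adjusted p 0.406), and the difference between the lines was 1.22 on the log2 scale (0.47 to 1.98, adjusted p 0.0282). Bmi1 averaged 26.9 ± 8.89 CPM in Oct4-KO late ICMs and 41.1 ± 12.4 in Ctrl, a log2 fold change of -0.58 ± 0.231 (-1.03 to -0.12, adjusted p 0.0463), with 7 of 8 KO embryos below the Ctrl median. That call was lost in 7 of the 16 fits without 1 embryo (adjusted p up to 0.135). Rnf2, the paralog of Ring1 that is known to do most of the H2A ubiquitination in embryonic stem cells, passed in 0 of the 6 KO comparisons, with log2 fold changes from -0.31 in Oct4 morulae to 0.40 in Sox2 early ICMs. In the latter, Rnf2 ran from 108 to 175 CPM in KO and from 78.8 to 131 in Ctrl, with 8 of 8 KO embryos above the Ctrl median and an adjusted p of 0.145. Kdm2b also passed in 0 of 6, with values from -0.23 to 0.07 and unadjusted p-values of 0.05 or more throughout. DESeq2 and limma on the rlog values also called Rnf2 and Kdm2b in 0 of 6, and the only unadjusted p under 0.05 of Rnf2 was the one in Sox2 early ICMs.

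The step from morula to early ICM called more of the 10 genes than any comparison of genotypes. Kdm2b fell from morula to early ICM in both lines, from 198 ± 45.5 to 79.2 ± 19.9 CPM in Oct4 Ctrl (log2 fold change -1.34, adjusted p 6.63e-11) and from 247 ± 49.4 to 67.0 ± 12.4 in Sox2 Ctrl (-1.89, adjusted p 3.37e-17), with no overlap in either. Ezh1 rose at the same step, by 0.76 (adjusted p 0.00217) in Oct4 Ctrl and by 1.52 (adjusted p 3.48e-09, no overlap) in Sox2 Ctrl. In Sox2 Ctrl embryos its range went from 5.21 to 21.4 CPM in morulae to 29.0 to 54.9 in early ICMs. The KO embryos made both changes as well, with Kdm2b at -1.41 and -1.97 and Ezh1 at 1.04 and 1.40 in the Oct4 and Sox2 lines. In all, 7 of the 10 genes passed between Ctrl morulae and early ICMs in each line, where 48% and 51.7% of all genes passed, and absence of overlap was found for 2 and 5 of the 10, and for 16.3% and 18.4% of all genes.

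**Figure D4:**
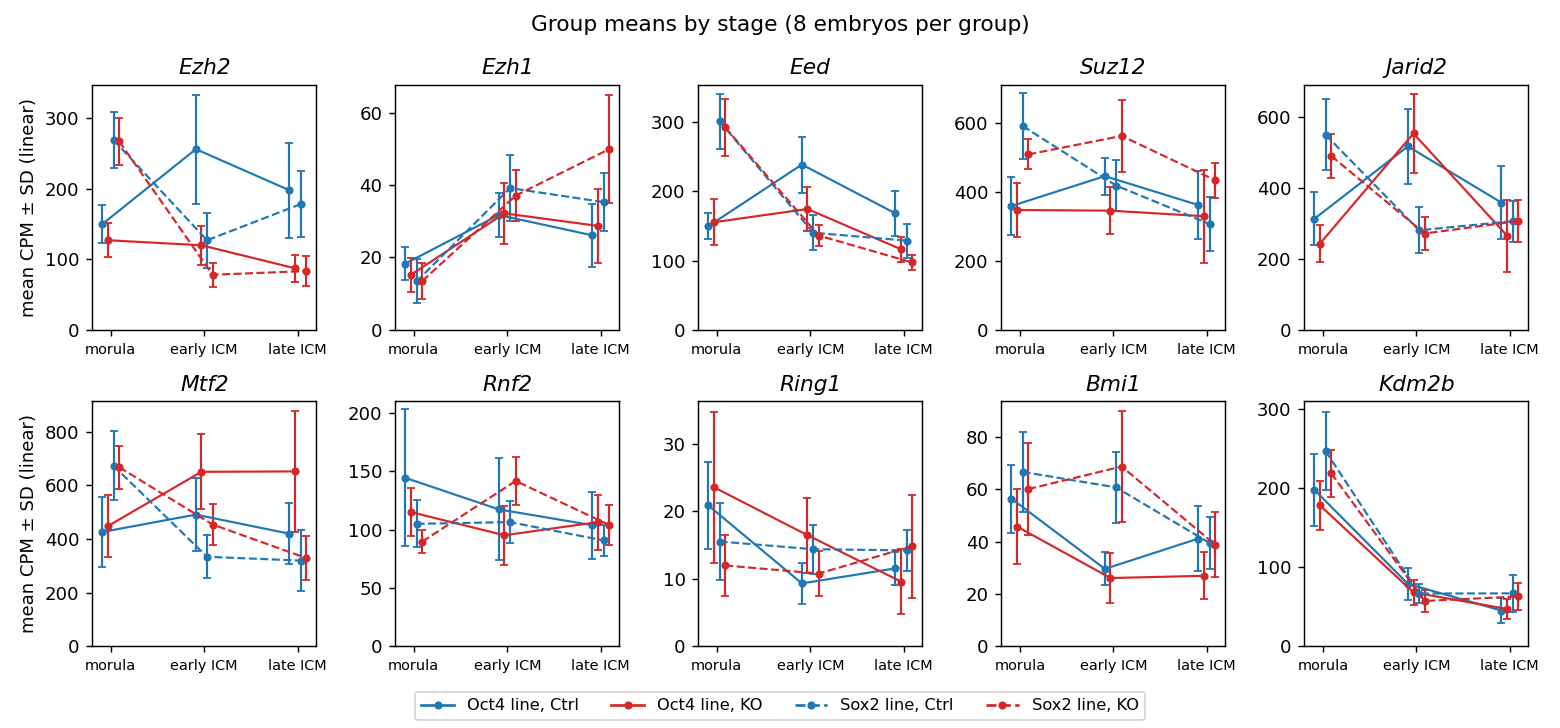
Mean CPM ± SD (n = 8 embryos per point) of each gene at the 3 stages, with linear axes starting at 0, the Oct4 line as solid and the Sox2 line as dashed lines, Ctrl in blue and KO in red. From morula to early ICM the Ctrl means of Ezh2 go from 150 to 256 CPM in the Oct4 line and from 269 to 127 in the Sox2 line, while Kdm2b falls in both.

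Ezh2, Eed and Jarid2 took opposite directions in the 2 lines at this step. In Oct4 Ctrl embryos, Ezh2 rose by 0.75 ± 0.162 (adjusted p 5.75e-05), Eed by 0.65 (adjusted p 3.57e-06) and Jarid2 by 0.70 (adjusted p 0.000172), while Suz12 (0.29, adjusted p 0.130) and Mtf2 (0.19, adjusted p 0.424) did not pass. In Sox2 Ctrl embryos, Ezh2 fell by 1.10 ± 0.163 on the log2 scale (adjusted p 1.17e-08), Eed by 1.11 (adjusted p 2.26e-13), Jarid2 by 0.98 (adjusted p 2.33e-07), Mtf2 by 1.02 (adjusted p 1.83e-06) and Suz12 by 0.51 (adjusted p 0.00584). Ctrl morulae ran from 130 to 185 CPM of Eed in the Oct4 line and from 243 to 356 in the Sox2 line, and Ctrl early ICMs from 180 to 295 and from 109 to 179, without overlap at either stage, as for 5.07% and 5.43% of all genes. The difference between the lines in this step, a test chosen after the values had been seen, was 1.85 ± 0.230 for Ezh2 (adjusted p 1.61e-10), 1.76 ± 0.171 for Eed (adjusted p 6.59e-15), 1.69 ± 0.230 for Jarid2 (adjusted p 3.72e-09), 1.21 for Mtf2 (adjusted p 0.000143) and 0.80 for Suz12 (adjusted p 0.00484). It was -1.04 for Ring1 (adjusted p 0.0246) and -0.79 for Bmi1 (adjusted p 0.0311), which fell in Oct4 Ctrl embryos by 1.17 (adjusted p 0.000115) and 0.94 (adjusted p 0.000115) on the log2 scale and passed in neither direction in Sox2 Ctrl. The Ring1 difference was lost with no filter (adjusted p 0.0642), and that of Bmi1 with no filter and with total UMIs alone (up to 0.0543). These 7 of 10 compare with 26.1% of all genes. Since the line and the batch cannot be told apart, the part of the batch in these opposite steps was not tested.

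The lines were closer at the late ICM. Among Ctrl embryos, 6 of the 10 genes differed between the lines in morulae, 5 in early ICMs and 1 in late ICMs, where 21%, 25.9% and 5.74% of all genes passed. Ezh2 was lower in the Oct4 line by 0.86 on the log2 scale in morulae (log2 fold change -0.86, adjusted p 1.98e-05), higher by 0.99 in early ICMs (adjusted p 1.15e-06), and 0.16 in late ICMs (-0.16 to 0.49). The gene that differed in late ICMs was Eed (0.39, adjusted p 0.0405). From early to late ICM, Oct4 Ctrl embryos lost Kdm2b (-0.78, adjusted p 0.000456), Jarid2 (-0.51, adjusted p 0.00997) and Eed (-0.49, adjusted p 0.000860), 3 of the 10 against 32.4% of all genes. In Sox2 Ctrl embryos Bmi1 fell (-0.63, adjusted p 0.0413), 1 of the 10 against 7.21%, but this passed in 4 of 8 alternatives only and was lost with both other scalings, no filter and limma on the rlog values (adjusted p up to 0.0741). Ezh2 had log2 changes of -0.36 (adjusted p 0.0818) and 0.47 (adjusted p 0.0608) at this step in Oct4 and Sox2 Ctrl. Both depended on the processing: the first passed with a mean of 5 CPM as the filter (adjusted p 0.0426) and with total UMIs alone (0.0371), and the second with DESeq2 (0.0317), limma on the rlog values (0.0383), MWT embryos in the fit (0.0437), either other scaling and the 5 CPM filter (up to 0.0475). The difference between the lines, -0.83, passed (adjusted p 0.00793), as it did for 3 of the 10 and 13% of all genes.

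The stage changes of Ezh2 were also read in the KO embryos. From morula to early ICM, the log2 changes in Ctrl were 0.75 in the Oct4 line and -1.10 in the Sox2 line. The test of KO against Ctrl steps, given above, passed in the Oct4 line and not in the Sox2 line. In the Oct4 line, Ezh2 had a log2 change of -0.11 (adjusted p 0.608) from KO morula to KO early ICM, whereas Jarid2 rose by 1.15 (adjusted p 6.25e-09) in the same KO embryos. From KO early to KO late ICM, Ezh2 was lower by a further 0.43 on the log2 scale (log2 change -0.43, adjusted p 0.0422). In the Sox2 line, Ezh2 fell by 1.82 (adjusted p 1.8e-16, no overlap, as for 20.5% of all genes) from KO morula to KO early ICM, from a mean of 267 to 78.1 CPM, and averaged 83.3 ± 21.3 CPM in KO late ICMs. The passing genes of the KO steps numbered 5, 5, 7 and 2 of 10, in the order Oct4 and then Sox2 with the earlier step first, beside 45.1%, 32.5%, 51.9% and 4.5% of all genes. These steps use the same KO embryos as the comparisons with Ctrl and are not independent of them.

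If MWT is read as above, MWT and Ctrl embryos differ in the maternal gene. Between them, edgeR called 0 of the 10 in Oct4 morulae, early ICMs and Sox2 early ICMs and 1 in Oct4 late ICMs, where 0.079%, 0.639%, 6.33% and 1.58% of all 13923 genes passed. At an unadjusted p under 0.05 there were 0, 2, 1 and 2 of the 10. The share of all genes at that looser rule was not computed, so these counts cannot be set against it. The gene called was Kdm2b, at 78.9 ± 31.5 CPM in MWT and 45.5 ± 15.6 in Ctrl late ICMs (log2 fold change 0.79, adjusted p 0.0227), with 6 of 8 MWT embryos above the Ctrl median. Ezh2 in the 5 Oct4 MWT early ICMs was at 165, 210, 216, 259 and 285 CPM, within or just below the range of 177 to 384 in Ctrl and above the range of the KO embryos. Its log2 fold changes against Ctrl were 0.12 (-0.20 to 0.45) in Oct4 morulae, -0.17 (-0.53 to 0.18) and -0.01 (-0.32 to 0.31) in Oct4 early and late ICMs, and 0.10 (-0.23 to 0.43) in Sox2 early ICMs. The rise of Ezh2 from morula to early ICM was also seen within the Oct4 MWT embryos (0.48, adjusted p 0.0285), as were the fall of Kdm2b (-1.20, adjusted p 2.19e-06) and of Bmi1 (-0.999, adjusted p 0.000299). There 6 of the 10 genes passed, against 43% of all genes, while Eed was at -0.01. This step was also tested only after the values had been seen. As the stage of these MWT ICMs is labelled in 2 ways, the sum of 11 canonical PRC1 genes, which is higher in late than in early Ctrl ICMs and was picked for that, is given beside it. Its median was 158 CPM in Oct4 MWT early and 288 in MWT late ICMs, next to 138 and 256 in Ctrl. In Oct4 morulae it was 102 in MWT and 108 in Ctrl.

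Taking the 16 groups in order of their mean Ezh2, the Sox2 Ctrl morulae were highest at 269 ± 39.4 CPM and the Sox2-KO early ICMs lowest at 78.1 ± 16.7, a ratio of 3.44. Of the 15 pairs of neighbours in this order, 14 differed by less than the larger SD of the pair, and the exception was the step from the Oct4-KO early ICMs (120 ± 27.9) down to the 3 lowest groups, which were the Oct4-KO late, Sox2-KO late and Sox2-KO early ICMs. The ratio of the highest to the lowest group mean was 5.44 for Kdm2b, 3.73 for Ezh1, 3.10 for Eed, 2.63 for Bmi1, 2.52 for Ring1, 2.33 for Mtf2, 2.27 for Jarid2, 1.93 for Suz12 and 1.62 for Rnf2. For Suz12, Rnf2, Ring1 and Bmi1 all 15 neighbouring groups lay within an SD of each other.

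Over the 16 group means of log2(CPM + 1), the genes of the most similar pattern to Ezh2, among 7572 genes reaching 20 CPM in some group, were Supt16 (Pearson r 0.886), Kif5b (0.885), Map3k7 (0.881), Ei24 (0.878) and Rrp1b (0.868). The closest to the other members were Mgarp for Ezh1 (0.956), Arih1 for Eed (0.940), Crlf3 for Suz12 (0.858), Ssb for Jarid2 (0.942), Ssr3 for Mtf2 (0.908), Mtf1 for Rnf2 (0.778), Otub1 for Ring1 (0.890), Ydjc for Bmi1 (0.916) and Nek2 for Kdm2b (0.973). Among the 10 themselves, Ezh2 was most like Eed (0.789), Eed also resembled Jarid2 (0.737), and Ezh1 ran against Kdm2b (-0.748), Eed (-0.642), Mtf2 (-0.603) and Ezh2 (-0.514). These are descriptions over 16 means that share stages, lines and libraries.

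Other genes of the Polycomb system changed in the same ICMs, several by more than Ezh2. Of 8 further PRC2 accessory genes tested, 0 passed as higher and 2 as lower in Oct4 early ICMs, 1 and 4 in Oct4 late ICMs, 0 and 1 in Sox2 early ICMs and 1 and 1 in Sox2 late ICMs. Aebp2, a PRC2 cofactor with zinc fingers, ran from 268 to 340 CPM in Oct4 Ctrl early ICMs and from 103 to 149 in KO, without overlap (log2 fold change -1.16, adjusted p 1.64e-09). Aebp2 was the only one of all these further genes past the test in Oct4 morulae (-0.59, adjusted p 0.0177). Phf1 fell in Oct4 late ICMs (-1.31, adjusted p 0.0172) from a Ctrl mean of 8.20 CPM, and Lcorl rose in Sox2 late ICMs (1.13, adjusted p 0.00718).

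Of 10 canonical PRC1 genes, 0 passed as higher and 1 as lower in Oct4 early ICMs, 0 and 4 in Oct4 late ICMs, 0 and 0 in Sox2 early ICMs and 1 and 1 in Sox2 late ICMs. Their median log2 fold changes were -0.15, -0.71, -0.24 and -0.40. The chromodomain gene Cbx6 fell in Oct4 early ICMs (-2.71, adjusted p 0.000931) and Oct4 late ICMs (-3.08, adjusted p 3.04e-05), and its relative Cbx2 in Oct4 late ICMs (-1.98, adjusted p 0.000555), all from Ctrl means of 5.54 to 10.0 CPM. Phc1, a Polyhomeotic homolog, fell from 22.1 ± 11.1 to 7.93 ± 3.57 CPM in Oct4 late ICMs (-1.45, adjusted p 0.000891). The same list had risen from early to late ICM in Oct4 Ctrl embryos, with 6 of 10 higher and 1 lower, against 17.2% and 15.2% of all genes, and a median of 1.27. In Sox2 Ctrl embryos, 2 were higher and 1 lower at that step, with a median of 0.40.

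Of 17 variant PRC1 genes, 3 passed as higher and 5 as lower in Oct4 early ICMs, 2 and 7 in Oct4 late ICMs, 0 and 2 in Sox2 early ICMs and 1 and 6 in Sox2 late ICMs, with medians of -0.11, -0.18, -0.06 and -0.33. Bcor, the corepressor of the variant complex that holds Kdm2b, fell in Oct4 early ICMs (-1.68, adjusted p 0.00554), Oct4 late ICMs (-2.62, adjusted p 1.55e-07) and Sox2 late ICMs (-1.06, adjusted p 0.0244). In Oct4 late ICMs it ran from 15.3 to 54.8 CPM in Ctrl and from 0 to 16.2 in KO. Its homolog Bcorl1 rose in Sox2 late ICMs (1.70, adjusted p 0.0227) to 6.66 ± 2.56 CPM. Fbrsl1, an AUTS2 family gene, was lower without overlap in Oct4 early ICMs (-1.12, adjusted p 1.49e-09) and Sox2 late ICMs (-1.28, adjusted p 5e-11), where 2.12% of all genes had no overlap. In these it went from 160 ± 26.3 to 73.2 ± 16.7 CPM and from 184 ± 28.9 to 75.8 ± 17.8. Usp7, a deubiquitinase found with PRC1, fell in Oct4 early ICMs (-1.12, adjusted p 3.08e-14, no overlap), and Pcgf5 rose there (1.01, adjusted p 0.00249). Pcgf6 fell in Oct4 late ICMs (-1.35, adjusted p 3.44e-07) and Sox2 late ICMs (-1.03, adjusted p 8.89e-05, no overlap). Of 7 genes for enzymes that remove the Polycomb marks or their partners, 1 passed as higher and 3 as lower in Oct4 early ICMs, 0 and 2 in Oct4 late ICMs, and 0 in both Sox2 ICM comparisons. All of these lists sit in ICMs where the shares of all genes given above changed, and they are set beside the 10 genes as description.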

How the data were processed

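Transcripts were counted in 48 Ctrl, 48 KO and 27 MWT single-embryo libraries, made with an oligo-dT primer that carries a UMI and enriched for 3′ ends. The authors used UMI-tools, Cutadapt, TopHat2 (mm10, GENCODE vM23), featureCounts and TRUmiCount, as their methods state. Strand use is not stated. The deposited counts are unnormalized whole numbers of UMIs. A further table by the authors, of 15747 genes on a regularized log2 scale (rlog, DESeq2), served as an alternative.

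Groups came from the sample labels. A gene was tested if UMIs were found in 0.5 or more of the embryos of any stage, 14053 over the 96 Ctrl and KO embryos and 13923 over all embryos for MWT comparisons. After TMM scaling, group means were estimated in edgeR 4.0.16 (R 4.3.3, glmQLFit and glmQLFTest, no covariates), and p-values were adjusted over all genes by Benjamini-Hochberg. Every adjusted p comes from this fit unless DESeq2 (1.42.0) or limma (3.58.1) is named. "Passed" means an adjusted p under 0.05, and a 2-fold change also needs a log2 fold change of 1 or more in size. The SE is the absolute log2 fold change over the square root of F. Levels are TMM-scaled CPM. No label says whether embryos shared a litter, so p-values measure the spread between embryos. The set (1 or 2) in the late ICM numbers was not a covariate and was tried as a block. Over 416 pairs within groups, the lowest chi-square per gene was 2.41, so no library was counted again under another name within its group. Pairs across groups were not examined. In simulated data for the Oct4 early ICM comparison (14053 genes), 68, 66 and 66 genes were changed by 1.5, 1 and 0.585 on the log2 scale. Of these, 57.4%, 40.9% and 13.6% passed. Far fewer genes were changed than the 2950 that passed in the real comparison, and the shares are not split by expression level. They therefore do not give the chance of a call for the Polycomb genes described here.

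The 10 genes and the other lists were chosen with earlier results of these data known. All 10 are named. Of the other Polycomb lists, up to 6 genes per KO comparison with the largest 2-fold changes could be named, and the genes of similar pattern are the top 5 for Ezh2 and the top 1 for each other gene. Promoters are from RefSeq, overlaps from GENCODE vM21, where all 10 genes lie at the positions of the count table.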

Additional observations from a re-analysis of the deposited data

Results flagged for a closer look

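In 12 of 160 sets of values (10 genes in 16 groups), 1 embryo lay further from the rest of its group than Dixon's 95% criterion allows. Chance alone gives about 1 in 20 such sets. The embryos concerned numbered 11, and Oct4 Ctrl late ICM 1-9 was the one named for more than 1 gene, as the lowest of its group for Suz12 (152 CPM) and Jarid2 (152 CPM). The lowest embryos of their groups were also Oct4-KO morula 6 for Ezh1 (6.60 CPM), Sox2 Ctrl early ICM 2 for Mtf2 (173 CPM), Sox2-KO early ICM 11 for Bmi1 (24.3 CPM), Oct4-KO early ICM 11 for Kdm2b (37.7 CPM), Sox2 Ctrl morula 14 for Kdm2b (145 CPM) and Sox2 Ctrl early ICM 11 for Kdm2b (42.7 CPM). The highest were Sox2 MWT early ICM 9 for Eed (205 CPM), Oct4-KO morula 7 for Jarid2 (363 CPM), Sox2-KO morula 21 for Mtf2 (842 CPM) and Oct4 MWT morula 5 for Ring1 (40.4 CPM). Ezh2 had no such embryo in any of the 16 groups.

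Of 90 tests of a difference between effects, 13 passed an adjusted p of 0.05. The KO effect in early ICMs differed between the lines for Suz12 (-0.78 on the log2 scale, Oct4 minus Sox2) and Ring1 (1.22), and the KO effect on Ezh2 in the Oct4 line differed between early ICM and morula (-0.87). The change from Ctrl morula to Ctrl early ICM differed between the lines for Ezh2 (1.85), Eed (1.76), Jarid2 (1.69), Mtf2 (1.21), Suz12 (0.80), Ring1 (-1.04) and Bmi1 (-0.79). The change from Ctrl early to Ctrl late ICM differed for Ezh2 (-0.83), Bmi1 (1.11) and Kdm2b (-0.77). The line and the batch cannot be told apart in these Ctrl comparisons.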

How the results depend on the processing

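The alternatives were DESeq2, size factors by the median of ratios, total UMIs alone, no filter beyond 1 UMI, a filter at a mean of 5 CPM, all embryos with MWT, only the groups compared, limma on the rlog values, other fold minima, a replicate block and leaving out each embryo. No called log2 fold change of the 10 genes reversed. Apart from the blocks and leaving out embryos, 331 values that had passed were recomputed, of which 316 still passed and 15 did not. Without 1 embryo, calls of Jarid2, Bmi1, Eed, Suz12 and Ring1 were also lost, as given beside them. Apart from the replicate block, Ezh2 passed in the 4 ICM comparisons under all of these and without any 1 embryo. On the embryos that share a number in Oct4 early ICMs, Ezh2 did not pass with that block or without it, as given below. For Ezh2, the processing alternatives ran from -1.16 to -0.96 and -1.26 to -1.01 in Oct4 early and late ICMs. In Sox2 early and late ICMs they ran from -0.78 to -0.60 and -1.19 to -0.97. Jarid2 and Bmi1 in Oct4 late ICMs did not pass with no filter or with only the groups compared, where their adjusted p rose to 0.188 and 0.0793. Eed in Sox2 late ICMs did not pass with no filter (adjusted p 0.0531). Without 1 embryo, Ezh2 ran from -1.16 to -0.97, -1.28 to -1.01, -0.79 to -0.56 and -1.18 to -1.02 in the same order. With the set of the late ICM numbers as a block, Ezh2 was at -1.13 (adjusted p 9.56e-05) and -1.07 (adjusted p 6.77e-05) in Oct4 and Sox2 late ICMs, and Bmi1 in Oct4 late ICMs did not pass (adjusted p 0.0619). Scaling by total UMIs moved the median of all genes to -0.10 in Oct4-KO late ICMs and 0.10 in the Oct4 Ctrl step to early ICM.

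Of 140 recomputed counts, other fold minima included, 22 moved by over 1.5 times or to or from 0. In the main fit these are counts of genes changed by 2-fold for the KO comparisons and Ctrl steps. For the KO steps, MWT, Ctrl lines and differences in KO effect they are counts of genes that passed. In Oct4 early ICMs the count was 1, and 3 at any fold, 2 at 1.5-fold, 0 with limma on rlog values, whose scale shrinks folds, and 0 to 1 without 1 embryo. In Oct4 late ICMs it was 1, and 5 at any fold and 2 at 1.5-fold. In Sox2 early ICMs it was 0, and 1 at any fold and 1 at 1.5-fold. In Sox2 late ICMs it was 1, and 3 at any fold and 0 with limma. For Oct4 Ctrl from morula to early ICM it was 2, and 7 at any fold, 7 at 1.5-fold and 1 with limma, and from early to late ICM 0, and 3 at any fold and 1 at 1.5-fold. For Sox2 Ctrl from early to late ICM it was 0, and 1 at any fold and 1 at 1.5-fold. The differences in KO effect between lines numbered 2, and 1 with no filter, and those between stages 1, and 2 with total UMIs and 2 with DESeq2. The causes were not tested.

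The deviations of same-numbered Ctrl and KO embryos from their group means had r from -0.08 to 0.23 over the pairs. No values for embryos of different numbers stand beside these, so r cannot decide whether the numbers pair them. With the number as a block in the 4 embryos so shared in Oct4 early ICMs, 0 of the 10 genes changed by 2-fold, and Ezh2 was at -0.52 (adjusted p 0.213) with the block and -0.52 (adjusted p 0.217) without it, both on fewer embryos. Eed (adjusted p 0.133) and Ring1 (adjusted p 0.239) did not pass there with the block either, while Mtf2 (0.61, adjusted p 0.0204) and Rnf2 (-0.76, adjusted p 0.0372) did. Rnf2 also passed on these embryos without the block (-0.79, adjusted p 0.0479). In Sox2 early ICMs the embryos so shared gave Ezh2 -0.94 (adjusted p 0.0269) with the block and -1.002 (adjusted p 0.0387) without, which made the count 1 without the block, and Mtf2 passed with it (0.74, adjusted p 0.0367). In Sox2 late ICMs Ezh2 was at -1.11 (adjusted p 0.00114) with the block, and Eed (adjusted p 0.333) and Suz12 (adjusted p 0.0748) did not pass. No paired analysis was possible in Oct4 late ICMs and Sox2 morulae because they share fewer than 2 numbers. Depth limits Ring1 and Ezh1 most, with medians of 12 and 23 UMIs per embryo.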

Other observations

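The Hox genes and the Cdkn2a locus, which are among the best known genes silenced by Polycomb complexes, were read as values only. Of 35 Hox genes in the count table, 1 (Hoxd1) had no UMI in any embryo and 11 passed the filter on low counts. The highest group mean of any Hox gene was 9.57 CPM, for Hoxc13 in Oct4-KO early ICMs. Hoxb13 reached 7.34 CPM in Sox2-KO early ICMs, and Hoxb9, the Hox gene seen in the most embryos (107), reached 6.84 CPM in Oct4 Ctrl late ICMs. Cdkn2a had 4 UMIs in all embryos together. Cdkn2b had 262 UMIs in 86 embryos, and its highest group mean was 9.84 CPM, in Sox2-KO late ICMs.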
